A study of Arabidopsis thaliana with 8 samples.

Results

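In Arabidopsis seedlings, the RNA of 5 genes whose signal in the eif3h mutant was far below that in wild type (WT) was examined in polysomes and outside them. They were ECS1 (AT1G31580), ZW9 (AT1G58270), AT3G47250, CYP71B26 (AT3G26290) and CNGC12 (AT2G46450), and each was represented by 1 probe set, which makes 5 of the 22746 probe sets of the ATH1 array without controls. The members were chosen by their large falls from WT to eif3h in these same arrays, so the size of that difference is given as a description and without a test. The polysomal (PL) and non-polysomal (NP) RNA were separated on sucrose gradients from extracts of aerial seedling parts, after 10 days under continuous light on Murashige and Skoog agar with sucrose. Both genotypes were grown and harvested alike: WT, and eif3h, which carries the eif3h-1 allele, a T-DNA insertion that leaves initiation factor subunit eIF3h truncated at its carboxyl terminus. Each sample pooled many seedlings from plates. There were 2 replicates per genotype, prepared on different days, and each gave 1 PL and 1 NP array, which makes 8 arrays in 4 groups.

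The mutant is represented by a single allele, and the sources used here do not state the ecotype of the seedlings used for the arrays. The methods name the ecotype Wassilewskija only for reporter lines made in plants heterozygous for eif3h-1. Values are MAS 5.0 signals, 1 linear intensity for each probe set, and every array had been scaled by the authors to a trimmed mean of 500. A signal therefore gives the amount of an mRNA relative to all RNA on that array, and in such bulk samples fewer cells of a type and less RNA per cell cannot be told apart. The median signal of the 8 arrays lay between 185.8 and 277.0, and the 20th percentile between 34.8 and 65.9. Of the leaf markers listed, 2 of 5 had a named probe set: RCA, the activase of Rubisco, lay at the 99.5 to 99.9 percentile of every array, and LHCB4.2, a light-harvesting antenna protein, at the 95.9 to 99.7 percentile. LHCB4.2 was lower in eif3h, with a log2 difference of -1.63 in PL (adjusted p = 0.00161) and -2.74 in NP (adjusted p = 0.000146, limma), while RCA differed by -0.09 and -0.80 without passing the test. PYK10, the beta-glucosidase of the ER bodies of roots and the only 1 of 5 root markers named, was also high (92.3 to 98.8 percentile) and differed between genotypes by 0.05 in PL and 0.20 in NP. The guard cell gene FMA lay at the 60.2 to 76.8 percentile (1 of 3 listed), and 0 of 3 seed markers had a named probe set. The part of these marker differences in the falls described here was not tested.

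The eIF3 complex binds the small ribosomal subunit and helps it to find the start codon, and its h subunit is not needed for translation of every mRNA. An mRNA that is being read by several ribosomes sediments in the polysomes, whereas a free or poorly read one stays in the lighter fractions. A lower rate of initiation moves an mRNA from the first pool to the second, so that its signals in PL and NP move apart. A lower amount of an mRNA lowers both signals together.

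The 5 genes belong to unrelated families. ECS1 encodes a small protein of the cell wall that was first described in work on resistance to the bacterium Xanthomonas campestris. CNGC12 is a cyclic nucleotide-gated ion channel, known together with its neighbour CNGC11 from a mutant with constitutive pathogen resistance. ZW9 belongs to the TRAF-like proteins, which carry a MATH domain, AT3G47250 to the plant proteins with the domain of unknown function DUF247, and CYP71B26 to the cytochrome P450 monooxygenases of subfamily 71B. They lie on chromosomes 1 (ECS1 and ZW9), 2 (CNGC12) and 3 (CYP71B26 and AT3G47250). The RefSeq annotation of assembly TAIR10.1 places 1707 protein-coding genes between ECS1 and ZW9 and 951 between CYP71B26 and AT3G47250. TIF3H1, the mutated gene, is also on chromosome 1, with 2082 protein-coding genes between it and ECS1 and 3790 between it and ZW9.

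ECS1 was among the most abundant RNAs of WT seedlings. Its WT signals were 22494.3 and 20305.5 in PL and 26483.2 and 27999.9 in NP for replicates 1 and 2, which placed it at the 99.6 to 99.7 percentile of these arrays. In eif3h it gave 94.2 and 171.2 in PL and 232.8 and 425.4 in NP. These lay at the 36.3 and 47.8 percentile of the PL arrays and at the 47.3 and 63.0 percentile of the NP arrays, so that a signal from the top of the array fell into its middle. The lowest WT signal was 119 times the highest eif3h signal in PL and 62.3 times in NP. On the log2 scale the differences (eif3h minus WT) were -7.90 and -6.89 in PL and -6.83 and -6.04 in NP for the replicates, with means of -7.39 and -6.44, or a signal 168-fold lower in PL and 86.5-fold lower in NP. When probe sets are ordered by the smaller of the falls in PL and NP, ECS1 ranked 1 of 11373.

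ZW9 was high in WT, with signals of 3907.1 and 1964.0 in PL and 2692.9 and 1289.5 in NP (89.1 to 96.4 percentile). In eif3h it read 195.7 and 82.2 in PL and 242.3 and 138.1 in NP. In all 4 groups replicate 1 was above replicate 2, and in eif3h it stood at the 51.1 percentile in PL in replicate 1 but at the 32.2 percentile in replicate 2. The genotypes did not overlap in either fraction, with a lowest WT signal 10.0 times the highest eif3h signal in PL and 5.32 times in NP. The mean difference was -4.45 in PL (21.8-fold lower) and -3.35 in NP (10.2-fold lower), and within each replicate it was close to that mean: -4.32 and -4.58 in PL, -3.47 and -3.22 in NP.

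AT3G47250 came closest to the bottom of the arrays. Its WT signals were 2091.6 and 2055.8 in PL and 3708.5 and 3487.7 in NP (93.4 to 96.6 percentile), whereas in eif3h they were 43.4 and 66.0 in PL and 6.0 and 77.6 in NP. The NP signal of 6.0, in replicate 1, lay at the 2.6 percentile, and the other eif3h signals lay between the 21.8 and the 27.8 percentile. That 1 array sets the size of its NP difference, which was -9.27 in replicate 1 and -5.49 in replicate 2, with a mean of -7.38 (167-fold lower). With signals under each array's 20th percentile raised to it, the NP fall was 53.9-fold. In PL the differences were -5.59 and -4.96, with a mean of -5.28 (38.7-fold lower). When 1 replicate of a genotype was left out of the fit, the PL fall ranged from 18.3-fold (without WT replicate 1) to 82.1-fold (without WT replicate 2), and the NP fall from 45.6-fold (without eif3h replicate 1) to 613-fold (without eif3h replicate 2). Without a WT replicate, the fit took the shift between replicates from the eif3h arrays alone, including the NP signal of 6.0. That PL range is therefore wider than the falls within the replicates, 48.2-fold and 31.1-fold, and does not show a spread of the WT signals in PL. The groups did not overlap in either fraction, by a factor of 31.1 in PL and 44.9 in NP.

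CYP71B26 had moderate signals in WT, 930.6 and 1013.2 in PL and 820.0 and 418.4 in NP, from the 65.9 to the 85.6 percentile. In eif3h it gave 87.7 and 36.7 in PL and 154.1 and 56.1 in NP. Both signals of replicate 2 were under their array's 20th percentile (19.3 and 18.3 percentile), and both signals of replicate 1 were above it (34.9 and 37.1). The falls were therefore of unequal size between replicates, with differences of -3.41 and -4.79 in PL and -2.41 and -2.90 in NP, and the means were -4.10 (17.1-fold lower) and -2.66 (6.30-fold lower). In PL the fall ranged from 10.3-fold without WT replicate 2 to 28.6-fold without WT replicate 1. In these fits as well the shift between replicates was taken from the eif3h arrays alone. The gap between the genotypes was narrowest here in NP, where the lowest WT signal was 2.72 times the highest eif3h signal, against 10.6 times in PL.

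CNGC12 was the member whose WT signals differed most between fractions. They were 514.1 and 642.7 in PL and 1572.0 and 2204.2 in NP (72.7 to 94.1 percentile). In eif3h the signals of 71.4 and 128.8 in PL and 114.9 and 172.9 in NP lay between the 30.6 and 41.5 percentile. The fall was smallest among the members in PL, with differences of -2.85 and -2.32 and a mean of -2.58 (5.99-fold lower). In NP the differences were -3.77 and -3.67, with a mean of -3.72 (13.2-fold lower). The genotypes stood apart by a factor of 3.99 in PL and 9.09 in NP.

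**Figure D1:**
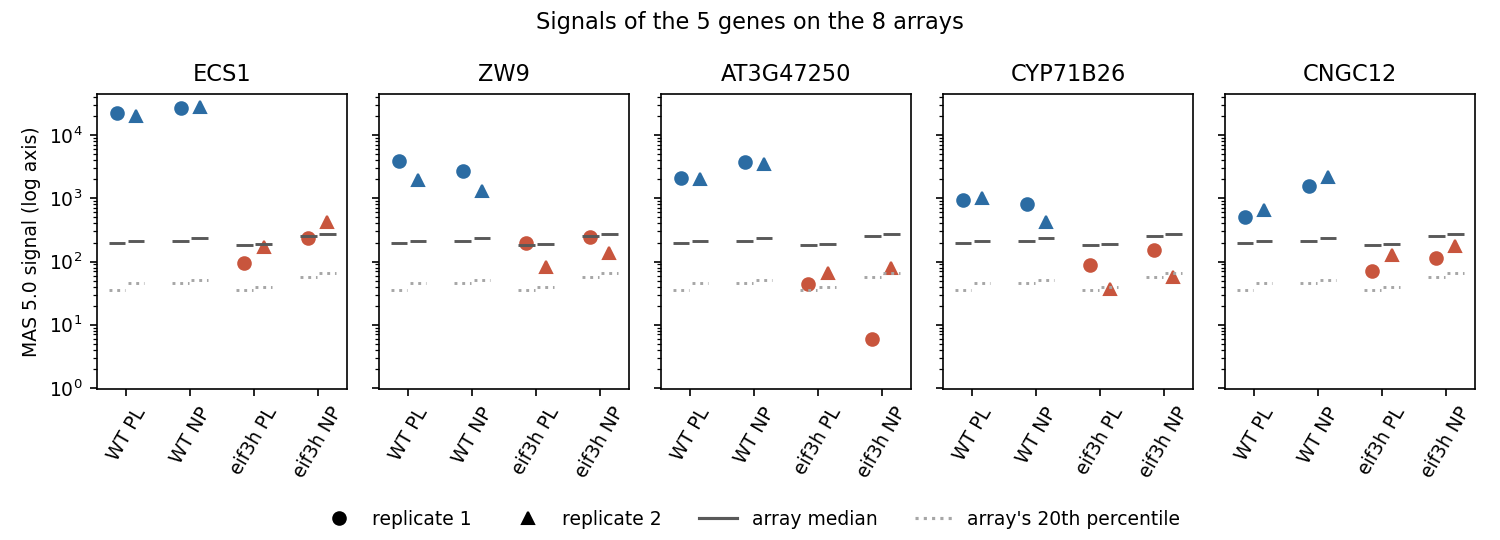
Signal of each gene on the 8 arrays (log axis), with WT in blue and eif3h in red, replicate 1 as circles and replicate 2 as triangles. Solid and dotted bars give the median and the 20th percentile of the same array: all WT signals stand above the median, and the eif3h signals lie mostly between the bars, with the 6.0 of AT3G47250 in NP as the lowest.

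Within the same array, the 20 WT signals of the 5 genes ranged from the 65.9 to the 99.7 percentile, with a median of 93.4, and the 20 eif3h signals from the 2.6 to the 63.0 percentile, with a median of 33.55. The 20th percentile of the array served as a stand-in for background, and 3 of 20 eif3h signals were under it, 1 of AT3G47250 and 2 of CYP71B26. Under the 30th percentile there were 6, under the 40th 14 and under the median 18. The 2 at or above the median were ECS1 in NP of replicate 2 and ZW9 in PL of replicate 1. As a floor measured on the same arrays, the 3 control probe sets for the Bacillus subtilis transcript TrpnX, for which no spike-in is stated in the sources used here, reached at most 8.8 to 73.0 per array. The eif3h signals of the members exceeded the highest of them in 19 of 20 cases, the exception being AT3G47250 in NP of replicate 1, at 6.0 on an array where the controls reached 73.0. Apart from that 1, the signals in eif3h were low but above the level of these 3 control probe sets. Affymetrix detection calls were not used here, and whether a signal of this size is specific to the mRNA was not tested. Signals above these limits therefore do not show that the mRNA was present in eif3h.

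All 5 probe sets passed the filter on mean signal, which kept 11373 of 22746, and they did so through their WT signals. In both fractions, both eif3h signals were below both WT signals for all 5, which was so for 13.2% of the tested probe sets. All 5 fell over 4-fold in both fractions, which was so for 0.457% (52 probe sets). By the test, 7.61% of probe sets were lower and 5.92% higher in eif3h in PL, and 8.65% were lower and 8.45% higher in NP. Since the rule used these differences, nothing is read from the members' counts. A more cautious fold is had by raising every signal under its array's median to that median. The falls of ECS1 then became 114-fold in PL and 82.3-fold in NP, those of AT3G47250 11.1-fold and 13.5-fold, and those of ZW9 14.4-fold and 6.98-fold. For CNGC12 they became 3.07-fold and 6.97-fold, and for CYP71B26 5.18-fold and 2.19-fold. ECS1 thus lost least to this floor, and AT3G47250 and CYP71B26, with the lowest signals in eif3h, lost most.

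The next values describe how the fall was shared between the fractions. They come from the differences on which the genes were selected, and a fall in both fractions whose mean exceeds the difference between them largely follows from that choice. The mean of the falls in PL and NP was 6.91 on the log2 scale for ECS1 (121-fold), 6.33 for AT3G47250 (80.4-fold), 3.90 for ZW9 (14.9-fold), 3.38 for CYP71B26 (10.4-fold) and 3.15 for CNGC12 (8.90-fold). The difference between the falls, which is the change of translation state, was smaller than their mean in each case. Its absolute size came to 13.9% of the mean fall for ECS1, 28.2% for ZW9, 33.3% for AT3G47250, 36.1% for CNGC12 and 42.7% for CYP71B26. The signal fell in both fractions for all 5 genes. Total RNA was not analysed here, so the RNA level was read only through these fractions.

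**Figure D2:**
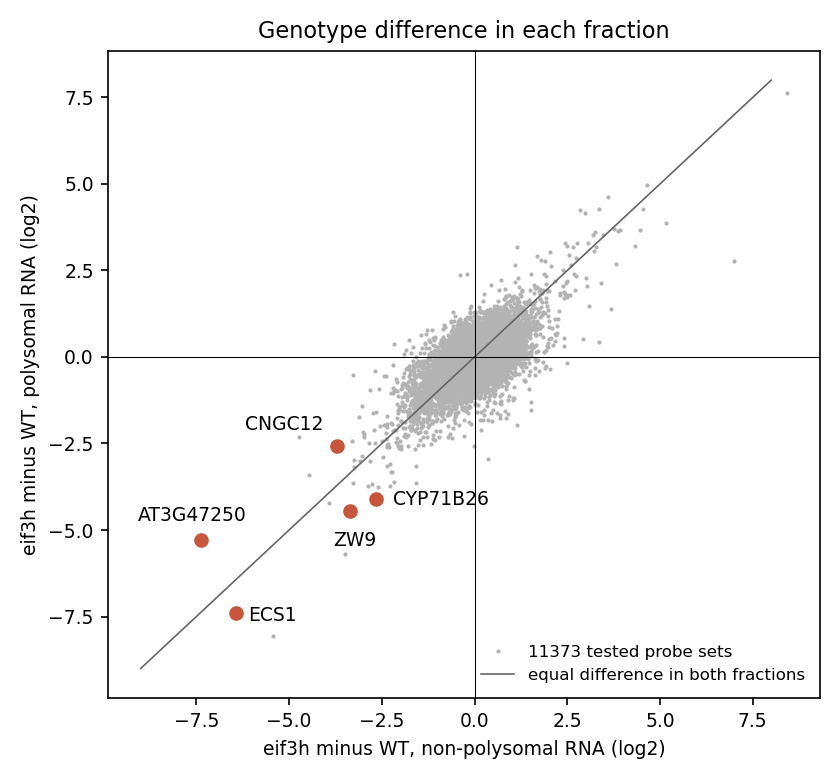
Genotype difference (eif3h minus WT, log2) in PL against that in NP for 11373 tested probe sets in grey and the 5 genes in red, with a line of equal difference. The 5 genes lie in the lower left, ZW9, CYP71B26 and ECS1 below the line (a larger fall in PL) and AT3G47250 and CNGC12 above it (a larger fall in NP).

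The translation state is log2 of the PL over the NP signal of a gradient, so that positive values mark mRNAs found more in polysomes. The ratio itself was not used to choose the genes. Its value in eif3h and its change are however formed from signals that were used in the choice, so their tests are not independent of it. The translation state was tested across all 11373 probe sets with limma. In WT, CNGC12 was the member found least in polysomes, with -1.61 and -1.78 in the replicates and a mean of -1.70 (SE 0.24, 2 gradients, 95% interval -2.23 to -1.16, adjusted p = 0.00152). It was the 1 of 5 that passed this test, and it was lower; over all probe sets 15.1% were lower and 15.0% higher. AT3G47250 had -0.83 and -0.76 (mean -0.79, SE 0.76, adjusted p = 0.463). This SE pools the residuals of all arrays, and the same 0.76 applied in eif3h, where the NP signal was 6.0 in replicate 1. The p of 0.463 therefore also reflects the spread of the eif3h arrays and does not describe the WT gradients alone. The same -0.79 passed with floors that raise that signal, at the 20th percentile (adjusted p = 0.0393) and at the median (adjusted p = 0.0141). ECS1 had -0.24 and -0.46 (mean -0.35, adjusted p = 0.37). ZW9, at 0.54 and 0.61 (mean 0.57, adjusted p = 0.0626), and CYP71B26, at 0.18 and 1.28 (mean 0.73, adjusted p = 0.187), had positive values without passing the test. With the gradient as the block in place of the replicate number, ZW9 passed as well (adjusted p = 0.0482). Under this block 2 of 5 passed in WT. Over all probe sets more passed under it too, above the 15.1% lower and 15.0% higher of the main fit. Nothing is therefore read from this count. ZW9 also passed after median centring (0.72, adjusted p = 0.0257).

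In eif3h the order was another one. ECS1 had -1.31 in both replicates (SE 0.28, adjusted p = 0.00614) and was the 1 of 5 past the test, again lower, against 22.2% of all probe sets lower and 16.9% higher. Its call was lost after quantile normalization (-0.79, adjusted p = 0.0592) and after median centring (-0.80, adjusted p = 0.0501), and the median of all tested probe sets in this comparison was -0.16, 0.05 and 0.36 under the deposited scaling and these alternatives. CYP71B26 stood at -0.81 and -0.61 (mean -0.71, adjusted p = 0.173), CNGC12 at -0.69 and -0.42 (mean -0.56, adjusted p = 0.0917) and ZW9 at -0.31 and -0.75 (mean -0.53, adjusted p = 0.0683). These 3 values lay within 0.18 of each other, and in each the gap between replicates was as large or larger. After quantile normalization they were -0.0 for CYP71B26, 0.16 for CNGC12 and 0.10 for ZW9. The 20th percentile of the eif3h arrays was 34.8 and 38.9 in PL but 57.3 and 65.9 in NP. A signal at that place on both arrays of a gradient therefore gives a negative translation state. With no filter the median of all probe sets was -0.42.

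AT3G47250 could not be placed in eif3h. Its translation state was 2.85 in replicate 1, where the NP signal was 6.0, and -0.23 in replicate 2 (mean 1.31, adjusted p = 0.197). With the gradient as the block the mean of 1.31 passed the test (adjusted p = 0.0492), so that 2 of 5 passed in eif3h in that fit. Over all probe sets more passed there too, above the 22.2% lower and 16.9% higher of the main fit. Nothing is therefore read from this count either. With signals under the 20th percentile raised to it the mean was -0.32 (adjusted p = 0.334), and without eif3h replicate 1 it was -0.23.

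The change of translation state, which is the value in eif3h minus that in WT, was negative for 3 genes and positive for 2. For ZW9 it was -0.85 and -1.36 in the replicates (mean -1.10, SE 0.29, 95% interval -1.75 to -0.45, adjusted p = 0.202). For CYP71B26 it was -1.0 and -1.89 (mean -1.44, SE 0.55, 95% interval -2.68 to -0.20, adjusted p = 0.293), and for ECS1 -1.07 and -0.85 (mean -0.96, SE 0.39, 95% interval -1.85 to -0.07, adjusted p = 0.314). In these 3 genes the fall was larger in PL in both replicates. CNGC12 had values of 0.93 and 1.35 (mean 1.14, SE 0.34, 95% interval 0.38 to 1.90, adjusted p = 0.217), so that its fall was larger in NP in both replicates. AT3G47250 had 3.68 and 0.53 (mean 2.10, SE 1.08, 95% interval -0.32 to 4.53, adjusted p = 0.404), and the mean became 0.48 with the floor at the 20th percentile. After quantile normalization the changes were -0.71 for ECS1, -0.41 for ZW9, -0.74 for CYP71B26, 1.83 for CNGC12 and 3.01 for AT3G47250.

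None of the 5 changes passed the limma test after adjustment over all probe sets, where 0.0176% of probe sets were higher and 0.0352% lower, which is 2 and 4 probe sets. At an unadjusted p under 0.05 there were 4 of 5, all but AT3G47250. The share of all probe sets at that threshold is not given here, so nothing is read from this count. With the gradient as the block in place of the replicate number 0 of 5 passed, with adjusted p from 0.063 to 0.139, while over all probe sets 116 were higher and 70 lower. Under a rule with no test, a change over 2-fold with similar replicates, 3 of 5 counted as changed: ZW9 and CYP71B26 with a lower and CNGC12 with a higher translation state. Over all probe sets the same rule counted 218 as higher and 366 as lower. ECS1 stayed under 2-fold, and the replicates of AT3G47250 were not similar. The limma test made few calls anywhere, and an adjusted p above its threshold does not show that loading was equal. Before adjustment the intervals of ECS1, ZW9, CYP71B26 and CNGC12 did not include 0, which restates the unadjusted count above and is not read either. Of these 4 the interval of CYP71B26 reached farthest and ended at -2.68. The median change over all tested probe sets was -0.12, and it was 0.00 after quantile normalization and 0.24 after median centring.

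**Figure D3:**
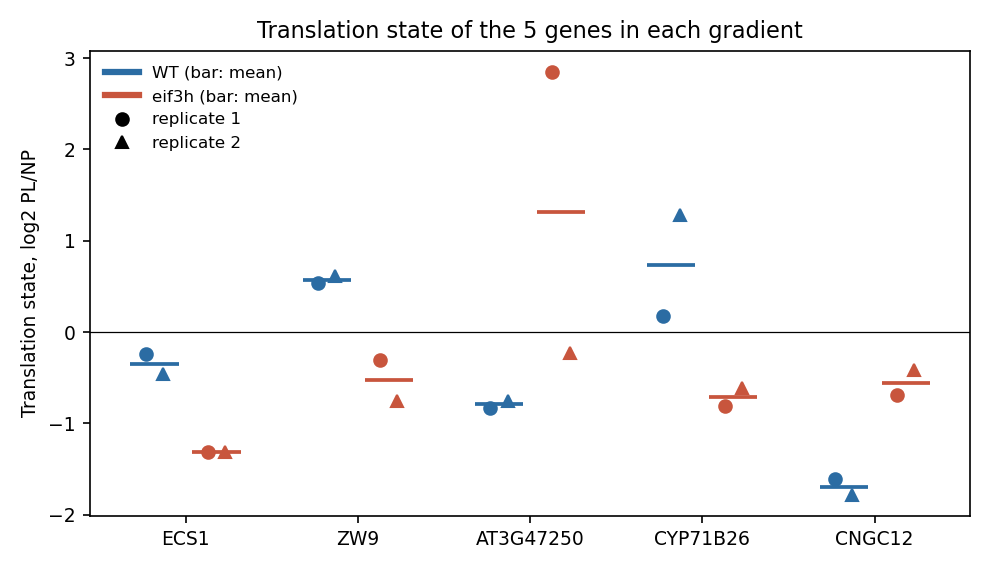
Translation state (log2 PL/NP) of each gene in each gradient, WT in blue and eif3h in red, with circles for replicate 1, triangles for replicate 2 and bars for means. ECS1, ZW9 and CYP71B26 lie lower in eif3h than in WT and CNGC12 higher, while the eif3h values of AT3G47250 are far apart at 2.85 and -0.23.

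TIF3H1, which encodes eIF3h itself, was lower in PL and not detectably different in NP. Its PL signals were 1277.3 and 1148.7 in WT and 213.4 and 192.4 in eif3h, whereas its NP signals were 2160.1 and 1732.5 in WT and 1897.3 and 1949.6 in eif3h. The PL groups stood apart and the NP groups overlapped. The difference was -2.58 in PL (SE 0.19, adjusted p = 0.000357) and -0.01 in NP (95% interval -0.44 to 0.43, adjusted p = 0.982), and the change of translation state was -2.57 (SE 0.27, adjusted p = 0.0419). Where its probes lie with respect to the T-DNA is not stated, so these values do not check the genotype labels.

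To see whether the falls were shared along the chromosome, the 5 protein-coding genes on either side of each member were examined. Of these 50 genes 18 had a named probe set, 7 beside ECS1, 5 beside CYP71B26, 3 beside AT3G47250, 2 beside CNGC12 and 1 beside ZW9, and 6 passed the filter on mean signal. None of the 18 was lower over 2-fold in both fractions. CYP71B24 (AT3G26230) lies near CYP71B26 (AT3G26290) by locus number, but outside this window. It was lower over 2-fold in both fractions and is described below, so the result for the 18 depends on the width of the window. With 10 genes on either side and no filter, 44 genes were tested, and 2 were called higher and 1 lower in PL. Within 5 genes and with no filter, 0 of 18 were called in PL. In the limma test 0 of 6 were called in PL (2 at an unadjusted p under 0.05), 0 were higher and 1 was lower in NP (4 at an unadjusted p under 0.05), and 0 changed in translation state (2 at an unadjusted p under 0.05). The share of all probe sets at the unadjusted threshold is not given here, so nothing is read from those unadjusted counts. Their median difference was -0.35 in PL and 0.06 in NP, against -0.06 and 0.10 over all tested probe sets.

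The neighbour called in NP was AT2G46490, the 5th gene after CNGC12. Its signals were 725.6 and 499.8 in PL and 3090.6 and 7443.8 in NP in WT, and 326.8 and 281.8 in PL and 1250.9 and 996.5 in NP in eif3h. The difference was -2.10 in NP (SE 0.38, adjusted p = 0.00827) and -0.99 in PL (adjusted p = 0.119). By the mean over PL and NP, the next largest differences among those tested were those of AT1G31550, beside ECS1, a GDSL esterase/lipase gene with 0.88 in PL and 0.20 in NP, and AT3G47295, beside AT3G47250, with -0.16 and -0.77. In NP alone AT2G46420, beside CNGC12, had 0.80 (adjusted p = 0.0582) and SAB, beside ZW9, 0.72 (adjusted p = 0.0826), with -0.24 and -0.54 in PL. None of these 4 passed the test.

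CYP71B26 lies in a row of genes of its own subfamily, and 5 genes of that row within 5 genes had a named probe set. CYP71B34, the gene directly after it, had signals of 483.9 and 478.8 in PL and 644.5 and 755.7 in NP in WT, and of 322.5 and 386.3 in PL and 486.8 and 892.9 in NP in eif3h. It differed by -0.45 in PL (adjusted p = 0.264) and -0.08 in NP (adjusted p = 0.84), and it was the only one of the 5 above the filter. CYP71B25, the 2nd gene before it, read 6.0 to 11.0 in WT and 23.4 to 160.3 in eif3h, signals under the filter, with differences of 2.61 and 2.74 that did not pass the test without that filter (adjusted p = 0.18 and 0.131). CYP71B36, the 3rd gene after it and also under the filter, read 47.7 and 122.3 in PL and 59.1 and 151.1 in NP in WT, and 30.2 and 55.2 in PL and 27.2 and 17.9 in NP in eif3h. Its differences of -0.90 in PL (adjusted p = 0.608) and -2.10 in NP (adjusted p = 0.143) did not pass the test either, and its genotypes overlapped in PL. CYP71B35 differed by -0.93 in PL and 0.10 in NP and CYP71B37 by -0.48 and 0.80, without passing.

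Of 36 other CYP71B genes, 18 had a named probe set and 3 passed the filter, and 0 of 3 were called in PL, NP or the change of translation state (0 at an unadjusted p under 0.05). CYP71B28 differed by -0.09 in PL and 0.45 in NP, and CYP71B6 by -0.04 and -0.24. The medians of the 3 were -0.09 in PL and -0.08 in NP. Without the filter all 18 were tested and 1 was called, lower in PL. This was CYP71B24, with signals of 170.2 and 220.1 in PL and 173.7 and 201.6 in NP in WT and of 19.3 and 26.5 in PL and 84.3 and 89.8 in NP in eif3h. The genotypes did not overlap in either fraction, and the difference was -3.10 in PL (adjusted p = 0.0143) and -1.10 in NP (adjusted p = 0.24).

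**Figure D4:**
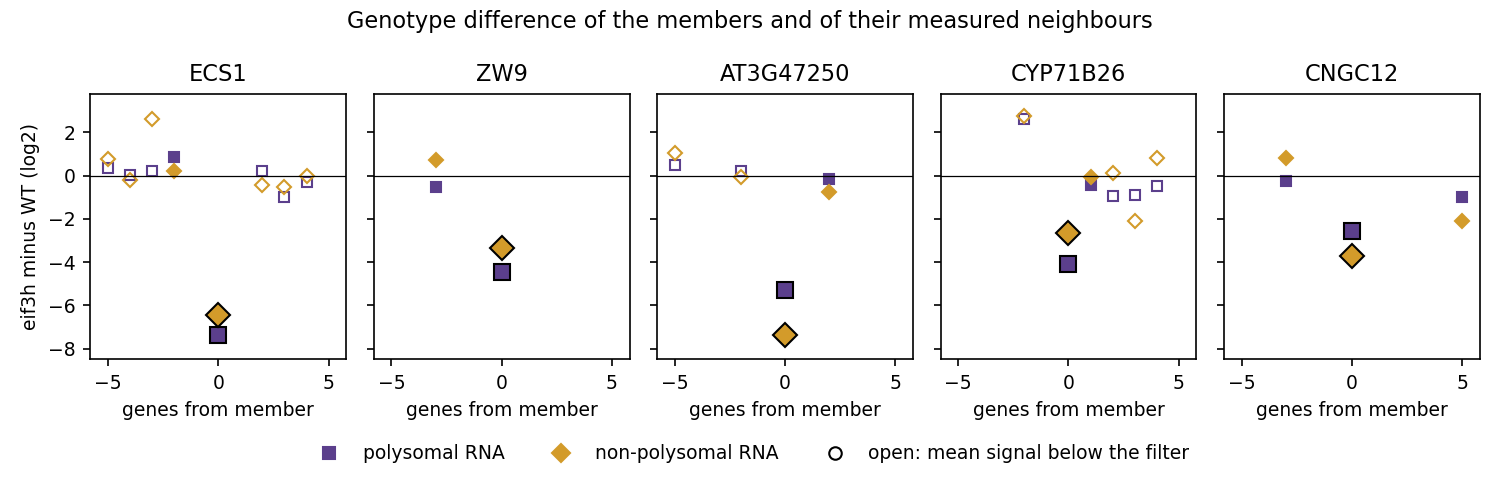
Genotype difference (eif3h minus WT, log2) of each of the 5 genes at position 0 and of the named genes up to 5 genes away, squares for PL and diamonds for NP, open where the mean signal was below the filter. The members lie between -2.58 and -7.39, and no measured neighbour reaches its member's difference in both fractions.

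Of 19 defence genes listed because ECS1 and CNGC12 are known from work on pathogens, 2 had a named probe set and 1 passed the filter, so the list says little about defence in these seedlings. That gene was PDF1.2, a plant defensin, with signals of 189.3 and 661.2 in PL and 122.0 and 575.7 in NP in WT and of 114.0 and 828.2 in PL and 65.5 and 481.5 in NP in eif3h. Replicate 2 was above replicate 1 in all 4 groups, and the genotypes overlapped in both fractions. It differed by -0.20 in PL and -0.58 in NP, and 0 of 1 were called in PL, NP or the change of translation state by limma (0 at an unadjusted p under 0.05). Of the 19 other CNGC channels 0 had a named probe set here.

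Falls of this size were few on the arrays. In both fractions 326 probe sets were lower over 2-fold, 52 over 4-fold, 10 over 8-fold and 3 over 16-fold, while 213, 40, 17 and 3 were higher. By the smaller of its falls AT3G47250 ranked 3, ZW9 7, CYP71B26 16 and CNGC12 18 among 11373. The 5 other named genes highest in this order were AT1G66100, AT5G44580, AT1G16260, MES8 and AT3G44630, and since they were selected on the same differences, these are given without a test.

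AT1G66100, a thionin-like gene, had WT signals of 12950.6 and 3009.5 in PL and 5541.0 and 1382.9 in NP, and eif3h signals of 12.0 and 45.2 in PL and 81.0 and 51.5 in NP, with differences of -8.07 and -5.42. Its fall in PL was larger than that of ECS1, and its WT replicates differed more from each other than those of any of the 5 genes. AT5G44580 differed by -3.18 in PL and -3.25 in NP, its WT signals reaching 12866.0 and its eif3h signals remaining between 575.1 and 1544.5. AT1G16260, a gene of the wall-associated kinase family, differed by -3.01 and -3.08. MES8, of the methylesterase family, differed by -3.73 and -2.87, from a probe set whose type can match more than 1 gene. AT3G44630, a disease resistance gene of the TIR-NBS-LRR class, differed by -3.67 and -2.76, with eif3h signals of 46.0 to 176.1.

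The pattern over the 8 arrays was compared next. Each log2 profile was centred on its own mean, and its root-mean-square distance to the median profile of the 5 genes was taken. The members themselves lay at 0.62 (ZW9), 0.85 (CYP71B26), 1.05 (CNGC12), 1.30 (ECS1) and 1.59 (AT3G47250). The nearest other named probe sets were those of MES8 (0.85, r = 0.95 over 8 arrays), AT5G44580 (0.85, r = 0.96), HTB11 (0.93, r = 0.96), AT3G44630 (0.94, r = 0.94) and AT4G02540 (1.03, r = 0.91). Of these, 3 are therefore also among the next largest falls. These correlations describe 2 genotypes of 4 arrays each, with the fractions of a gradient sharing an extract, and carry no test.

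HTB11, a histone H2B gene, was the only one of these 5 that was higher in PL than in NP in both WT replicates. Its signals were 1564.1 and 1208.6 in PL and 727.2 and 544.0 in NP in WT, and 118.0 and 92.1 in PL and 160.4 and 105.2 in NP in eif3h. Its differences were -3.72 in PL and -2.28 in NP. Its translation state was 1.13 in WT (adjusted p = 0.00686) and -0.32 in eif3h, and its change of -1.45 did not pass the test (SE 0.32, adjusted p = 0.154). HTB11 was picked by its profile over these same signals, so these limma tests are not independent of the choice. AT4G02540, a gene of the C1 domain family, differed by -3.76 in PL and -2.59 in NP.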

How the data were processed

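RNA of the 8 arrays was hybridized to the Affymetrix ATH1 GeneChip. The authors corrected the background and scaled each array with MAS 5.0, and deposited a linear signal intensity for each probe set. No detection calls were used, and no test included the 64 control probe sets.

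Probe sets were named through the platform annotation matched to RefSeq (TAIR10.1, used for names and gene order only). This named 13508 probe sets with 1 gene each. A further 359 were named through the study's supplementary gene list alone, among them the probe set of CNGC12, and 503 matched several genes and were not named. The TRAF-like and DUF247 families could not be listed, since the tables do not name them.

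The log2 of each signal was used with no offset, and 50% of probe sets, those of highest mean signal, were kept. The 8 arrays entered 1 fit with limma 3.58.1 under R 4.3.3 (lmFit, then eBayes allowing the variance to depend on the mean), in which 4 groups and a block for the replicate number were the terms. The contrasts were the translation state in each genotype, its change, and the genotype difference in each fraction. Tests are two-sided, and the threshold was an adjusted p (Benjamini-Hochberg) of 0.05. With 2 gradients per genotype, precision is limited by the number of arrays. The script was tested on simulated data.

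The replicate numbers pair the samples. The deviations between replicates showed correlations of 0.33 to 0.68 between groups, and RNA preparation, scan day and scanner all follow the number, with both genotypes under each. The values within a replicate are therefore also those within a scan day.

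The members, the lists of neighbours, families and defence genes, and the tests were chosen with earlier results of these data known. Named genes were the members, TIF3H1, the 5 other named genes with the largest fall common to both fractions and WT signals above the array median, the 5 nearest profiles, and from each list those past the test and the 3 tested genes with the largest mean genotype difference. CYP71B24, CYP71B25, CYP71B35, CYP71B36, CYP71B37, AT2G46420 and SAB were named after their values were seen. The alternatives were no replicate block, the gradient as a block, quantile normalization, median centring, 16 or 64 added to each signal, floors at the 20th percentile or the median, no filter or the upper 75%, and leaving out each replicate.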

Additional observations from a re-analysis of the deposited data

Results flagged for a closer look

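For TIF3H1 the genotype difference was not the same in the fractions. The difference in PL exceeded that in NP by -2.57 on the log2 scale (SE 0.27, adjusted p = 0.0419, limma), with -2.39 and -2.75 in the replicates. This was the only one of the named genes for which the difference between fractions passed the test.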

How the results depend on the processing

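The genotype differences of the 5 genes kept their sign under all 13 alternatives run for each, but 30 of 130 values moved by more than the spread between replicates. The values for AT3G47250 lay between -6.36 and -3.47 in PL and between -9.26 and -3.75 in NP, those for CYP71B26 between -4.84 and -2.37 and between -3.17 and -1.13, and those for CNGC12 between -2.81 and -1.62 and between -4.12 and -2.80. The change of translation state also kept its sign in all 14, from -1.07 to -0.47 for ECS1, -1.32 to -0.41 for ZW9, -1.99 to -0.74 for CYP71B26, 0.28 to 3.65 for AT3G47250 and 1.01 to 1.83 for CNGC12. It passed the test for ECS1, ZW9, AT3G47250, CYP71B26 and CNGC12 only where an eif3h gradient was left out. In such a fit the lone gradient is assumed to vary like the others, so nothing is read from these calls and their p-values are not given. The largest adjusted p over the alternatives was 0.705, 0.764, 0.752, 0.735 and 0.66 in that order. The call of CNGC12 in WT held in all 14 (adjusted p from 3.21e-13 to 0.0388). In eif3h the translation state reversed for AT3G47250 (-0.32 and -0.51 with the floors, -0.23 to 2.85 when a replicate was left out), and after quantile normalization for ZW9 (0.10) and CNGC12 (0.16). The causes were not tested.

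Counts over all probe sets moved more. The change of translation state gave 0 higher and 0 lower without the replicate block, with no filter and with the upper 75% by signal, 116 and 70 with the gradient as a block, 0 and 1 after quantile normalization, 35 higher after median centring, 10 and 13 with the floor at the median, and 0 to 523 and 1 to 394 when a replicate was left out. A 2-fold rule on similar replicates gave 218 and 366. For the translation state in WT there were 838 higher and 895 lower without the replicate block, and 778 to 2682 and 795 to 2669 when a replicate was left out. In eif3h these were 1195 and 1468 without the block and 3895 and 968 after median centring. The PL difference gave 111 and 190 without the block, 523 lower after quantile normalization, and 322 to 1238 and 377 to 1635 when a replicate was left out. The NP difference gave 174 and 320, 412 and 1721 after median centring, and 503 to 1674 and 558 to 1664.

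Relative to all probe sets, the neighbours' median in PL was -0.12 with no filter, -0.10 for 2 genes on each side and -0.12 for 10, and that of the change of translation state was 0.15 after quantile normalization, -0.10 with no filter, 0.72 for 2 genes and -0.19 for 10. With no filter the CYP71B median in PL was -0.38 (1 of 18 called lower) and the defence median in NP 0.02. Limits at the 30th and 40th percentile gave 6 and 14 eif3h signals.

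Among other genes, signs turned for TIF3H1 in NP (0.16 after quantile normalization, -0.15 to 0.13 when a replicate was left out), AT1G31550 in NP (-0.06 after quantile normalization, -0.05 after centring, -0.15 to 0.54), CYP71B28 in PL (0.03 after centring, -0.21 to 0.04), CYP71B6 in PL (0.02 and 0.07, -0.29 to 0.21) and in NP (-0.53 to 0.05), and PDF1.2 with the floor at the median (0.13 in PL, 0.00 in NP; -0.74 to 0.33 in PL when a replicate was left out). They also turned when a replicate was left out for AT3G47295 in PL (-0.65 to 0.32) and CYP71B34 in NP (-0.47 to 0.30), and in the change of translation state for AT5G44580 (-0.27 to 0.42), AT1G16260 (-0.84 to 0.98) and, with the floor at the median, AT4G02540 (0.03). None passed the test with the turned sign. The change of TIF3H1 lost its call without the block (adjusted p = 0.323), after quantile normalization (0.0544), with no filter (0.0628) with the upper 75% (0.0807), without WT replicate 1 (0.0554) and without WT replicate 2 (0.11). Its value stayed between -2.67 and -2.21 in all 14 alternatives.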
